A study of Homo sapiens with 9 samples.

Results

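The genes that hydroxylate, glycosylate and fold procollagen were followed by name: the prolyl 4-hydroxylase subunits P4HA1, P4HA2, P4HA3 and P4HB, the lysyl hydroxylases PLOD1, PLOD2 and PLOD3, the collagen galactosyltransferases COLGALT1 and COLGALT2, and SERPINH1, which encodes HSP47. These are 10 of the 59294 genes to which the quantified transcripts could be assigned, and they were taken from a list of names that was drawn up with earlier results of these data known. Poly(A) RNA was sequenced from MCF10A-YAP cells, which are MCF10A cells, an immortalised and non-transformed breast epithelial line, made to overexpress activated YAP, a coactivator of transcription that is held constitutively active. The 3 groups of 3 libraries, lettered A, B and C, were cells with the sgRNA TRAM2-KO1, cells with the sgRNA TRAM2-KO2, and control cells with a non-targeting sgRNA. These groups follow the sample labels. The design text of the series names other conditions (an empty vector and overexpression of TRAM2 or YAP), and this conflict between the texts was not resolved. TRAM2 was lower in both sgRNA groups than in control (log2 fold changes −1.17 and −1.16), as the labels would have it. With the groups of the labels, active YAP, CRISPR vector and antibiotic selection were common to all 3 groups. RNA was taken after selection, near confluence. The comparison asks how these genes stand when TRAM2, an endoplasmic reticulum (ER) membrane protein associated with the translocation channel and with collagen synthesis, is targeted. The labels do not name the cells as single clones, and they do not say whether the libraries of a group came from separate cultures, so p-values measure the spread between these libraries, which may be technical.

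Collagen chains are modified in the ER before they fold. Prolyl 4-hydroxylase is built of catalytic alpha subunits (P4HA1, P4HA2 or P4HA3) and of P4HB, which is also protein disulfide isomerase, and the hydroxyproline it makes stabilises the triple helix. Lysyl hydroxylases make hydroxylysine, to which COLGALT1 or COLGALT2 add galactose, and PLOD2 hydroxylates the ends of the chains (telopeptides), which sets the kind of cross-link that forms outside the cell. HSP47 is a chaperone that binds the folded triple helix on its way to the Golgi.

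Each library held between 21.7 M and 27.6 M estimated reads. TRAM2 itself had 219, 209.9 and 203 CPM (counts scaled to library size) with TRAM2-KO1 and 216, 212 and 210.5 CPM with TRAM2-KO2, against 481, 464 and 475 CPM in control, so that about 55% of its reads were gone with each guide and the transcript was still present. Of 9 markers of basal breast epithelium, 8 were at 1 TPM (transcript abundance scaled by length and library size) or more in every library, with TP63 at 0.018 to 0.18 TPM the exception. Of 8 fibroblast markers this held for FAP alone, COL1A2, COL3A1 and THY1 were near 0, and the summed level of the list was 86.4 to 103 TPM in TRAM2-KO1, 96.4 to 98.2 TPM in TRAM2-KO2 and 107 to 128 TPM in control; the part of these levels in the results was not tested. The summed level of the 9 basal markers was 2560 to 2761 TPM in TRAM2-KO1 and 3161 to 3222 TPM in TRAM2-KO2, against 2930.5 to 3003 TPM in control. Of 7 luminal markers, 3 were at 1 TPM or more in every library: KRT8 (1040 to 1207 TPM), KRT18 (709 to 821 TPM) and, far lower, GATA3. ESR1, KRT19 and ELF5 reached at most 0.89, 0.82 and 0.045 TPM, and PGR was at 0 TPM. The summed level of the 7 luminal markers, mainly KRT8 and KRT18, was 1866 to 2000 TPM in TRAM2-KO1 and 1958 to 1990 TPM in TRAM2-KO2. In control it was 1790 to 1827 TPM. Neither the basal nor the luminal sum overlapped the control range, and the part of these sums in the results was not tested either. Libraries B and C of TRAM2-KO1 stood apart in GC content: gene levels relative to the mean of all libraries were related to it with a Spearman coefficient of −0.54 in library B and −0.37 in library C, and of 0.19 in library A, against −0.10 to 0.41 in TRAM2-KO2 and 0.15 to 0.26 in control (a description over genes, which are not independent). Values from a test with an offset for GC content are therefore given for all 8 expressed members further on, and for another named gene where that offset ends the call.

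Of the 10 genes, 8 were expressed in every library and COLGALT2 and P4HA3 hardly at all. In TPM, which is per length and so allows different genes to be ordered, P4HB was the highest with 973 ± 108 TPM in TRAM2-KO1, 870.2 ± 39.5 TPM in TRAM2-KO2 and 1105 ± 30.2 TPM in control (SD, n = 3 each). PLOD2 came next with 369 ± 25.02, 352 ± 17.4 and 498 ± 11.3 TPM in the same groups, more than 3 times the level of PLOD3, the next lysyl hydroxylase, at 113, 107 and 128 TPM. P4HA2 (88.5, 87.7 and 107 TPM) lay above P4HA1 (42.7, 41.7 and 49.7 TPM). In control cells SERPINH1 (86.5 TPM) and COLGALT1 (85.8 TPM) overlapped in their ranges, with PLOD1 (82.3 TPM) just below; in TRAM2-KO1 COLGALT1 and PLOD1 overlapped as well. Over all transcripts, the order of these 8 levels was the same in the 3 groups. Part of these levels rested on transcripts not annotated as protein-coding: in control cells, protein-coding transcripts made up 52.7% of the TPM of P4HB, 60.6% of that of COLGALT1, 71.2% of that of PLOD3 and 89.3% of that of PLOD2. The protein-coding class also holds short forms, such as P4HB-214 with 353 bases. Counted on protein-coding transcripts alone, P4HB (582 TPM) and PLOD2 (445 TPM) remained the highest in control cells, but the order below them changed: P4HA2 (103 TPM) stood above PLOD3 (91.3 TPM), and COLGALT1 came to 52.0 TPM. In TRAM2-KO1 COLGALT1 (38.9 TPM) was then below P4HA1 (42.6 TPM).

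P4HA3, an alpha subunit, had 6 to 14 reads in the TRAM2-KO1 libraries, 11 in each TRAM2-KO2 library and 5 to 17 in the control libraries. COLGALT2 had 6, 4 and 11 reads in TRAM2-KO1 and 11, 4 and 7 reads in TRAM2-KO2, against 3, 5 and 3 reads in control, and was not tested. At these counts a difference was not detectable.

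Of the 10 genes, 9 passed the filter on low counts, and 8 of these fell with TRAM2-KO1 and 6 with TRAM2-KO2 at an adjusted p under 0.05. None rose, none was higher at an unadjusted p under 0.05 in this test (edgeR), and with DESeq2 8 and 7 fell and none rose. Over all 15139 genes tested 2.15% fell and 0.753% rose with TRAM2-KO1, and 2.49% fell and 1.73% rose with TRAM2-KO2. The changes were small: none with TRAM2-KO1 and 1 (PLOD2) with TRAM2-KO2 was beyond 0.5 on the log2 scale, the limit the study used, against 0.429% and 0.304% of all genes. In the test of both guides together against control 8 fell and none rose, against 2.51% and 1.33% of all genes; all 6 guide libraries lay below all control libraries in 8 genes, against 4.72% of all genes. With each guide, 8 genes had every guide library below every control library, against 11.1% of all genes with TRAM2-KO1 and 12.3% with TRAM2-KO2. The median log2 fold change of the 9 genes was −0.33 with TRAM2-KO1 and −0.25 with TRAM2-KO2, where the median over all genes was 0.0051 and −0.0032. The 2 comparisons share their control libraries. In bulk RNA, fewer cells that express a gene and less RNA per cell cannot be told apart.

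**Figure D1:**
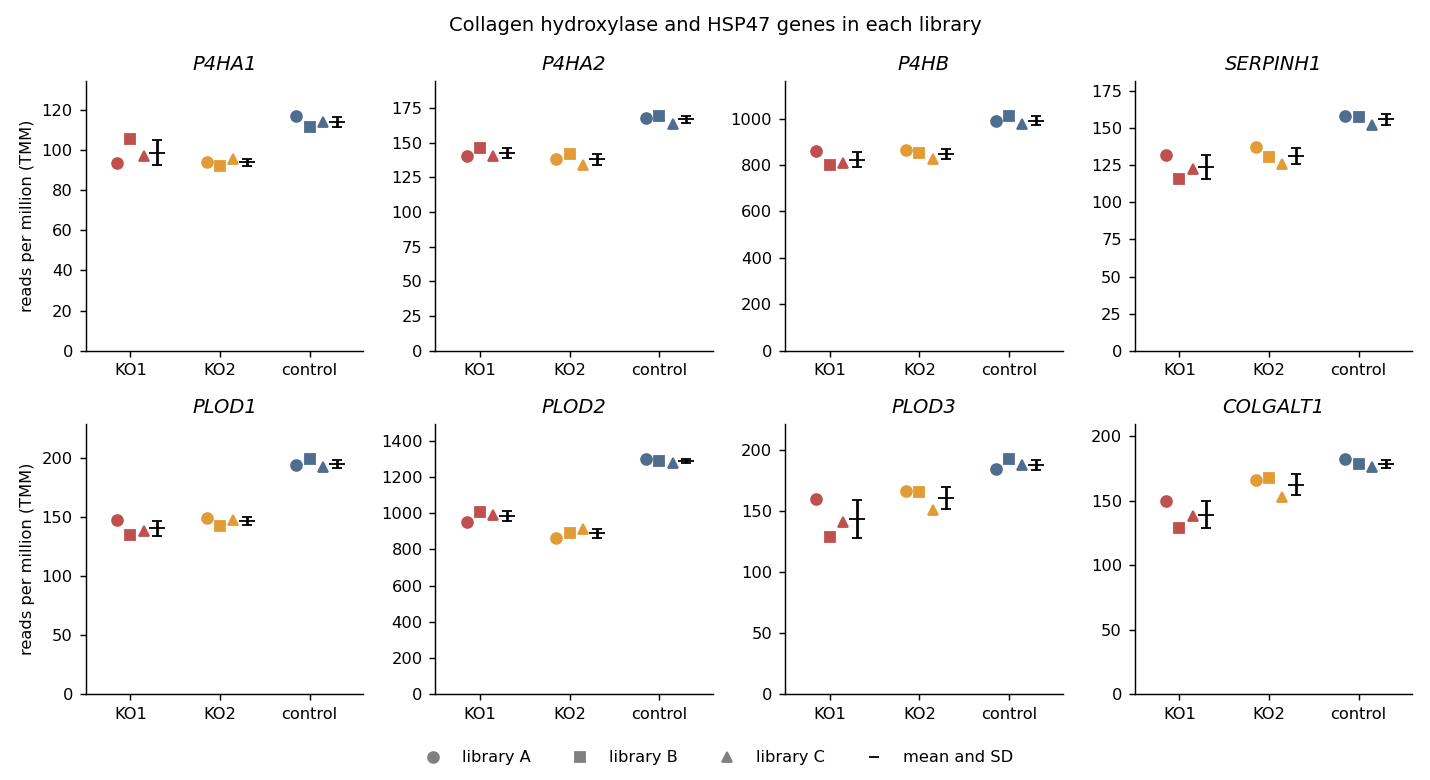
Levels of the 8 expressed genes in each library, in CPM after TMM scaling (y axis, from 0), for TRAM2-KO1, TRAM2-KO2 and control (x axis); symbols mark libraries A, B and C, and the black bar gives the mean and SD of 3 libraries. All guide libraries lie below all control libraries for each of the 8 genes, as for PLOD2 with 862 to 1008 CPM against 1277 to 1298 CPM.

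Among the prolyl 4-hydroxylase subunits, P4HA1, P4HA2 and P4HB fell with each guide, by 13.6% to 17.6%. P4HA1, the main catalytic subunit of many cell types, was at 93.3, 105 and 96.7 CPM in TRAM2-KO1 and at 93.9, 92.1 and 95.6 CPM in TRAM2-KO2, against 117, 112 and 114 CPM in control. Its log2 fold change was −0.21 ± 0.04 with TRAM2-KO1 (standard error; adjusted p = 0.0305) and −0.28 ± 0.04 with TRAM2-KO2 (adjusted p = 0.00507). P4HA2, the alpha subunit known from cartilage and endothelium, was at 141, 147 and 140.5 CPM in TRAM2-KO1 and at 138, 142 and 134 CPM in TRAM2-KO2, against 168, 169 and 164 CPM in control. The guide and control libraries did not overlap, and the fold changes were −0.23 ± 0.03 (adjusted p = 0.00312) and −0.27 ± 0.03 (adjusted p = 0.000831). P4HB, which holds the alpha subunits in solution and in the ER, was at 861, 801 and 809 CPM in TRAM2-KO1 and at 866, 853 and 825 CPM in TRAM2-KO2, against 989, 1010.2 and 974 CPM in control. Its fold changes were −0.27 ± 0.03 (adjusted p = 0.00147) and −0.23 ± 0.03 (adjusted p = 0.0034). Among the alternatives run, P4HB passed in 25 of 26 with TRAM2-KO1 and in 24 of 25 with TRAM2-KO2. Across these, its fold change with TRAM2-KO1 ran from −0.30 to −0.17. In TPM, P4HB in TRAM2-KO1 library C (1098) lay within the control range (1071 to 1130). The call of P4HA1 with TRAM2-KO1 was lost without any 1 of the control libraries A, B or C (adjusted p of 0.123, 0.063 and 0.0899), without TRAM2-KO1 library C (0.0994), and without TRAM2-KO2 library A (0.0553) or C (0.0524). Among all alternatives run it passed in 18 of 26 (adjusted p up to 0.176), so not every loss is named.

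The largest fold changes in the main test were those of PLOD1 with TRAM2-KO1 and of PLOD2 with TRAM2-KO2. With the GC offset that of PLOD2 was the largest with each guide (−0.44 and −0.54, against −0.37 and −0.41 for PLOD1). PLOD1, which hydroxylates lysines within the helix, was at 148, 135 and 139 CPM in TRAM2-KO1 and at 149, 142 and 148 CPM in TRAM2-KO2, against 194, 199 and 192 CPM in control. It fell by 28.01% with TRAM2-KO1 (log2 fold change −0.47 ± 0.04, adjusted p = 6.95e-05) and by 24.98% with TRAM2-KO2 (−0.41 ± 0.04, adjusted p = 0.000134). PLOD2, the telopeptide lysyl hydroxylase, was at 952, 1008 and 992 CPM in TRAM2-KO1 and at 862, 890.5 and 912 CPM in TRAM2-KO2, against 1298, 1288 and 1277 CPM in control. The 3 groups did not overlap, with control highest and TRAM2-KO2 lowest. PLOD2 fell by 23.6% with TRAM2-KO1 (−0.39 ± 0.03, adjusted p = 6.37e-05) and by 31.0% with TRAM2-KO2 (−0.54 ± 0.03, adjusted p = 7.01e-06). PLOD3, which has glycosyltransferase activity beside its lysyl hydroxylase activity, was at 160.3, 129 and 141 CPM in TRAM2-KO1 and at 166, 166 and 151 CPM in TRAM2-KO2, against 184, 192 and 188 CPM in control. It fell with TRAM2-KO1 (−0.39 ± 0.07, adjusted p = 0.0122) and had a fold change of −0.22 ± 0.07 with TRAM2-KO2 (adjusted p = 0.119). Its call with TRAM2-KO1 was lost without control library B (0.0639) or C (0.0529) or without TRAM2-KO1 library C (0.0608), and its fold change with TRAM2-KO2 passed the test without TRAM2-KO1 library A (0.0205) or B (0.0353). Among all alternatives run PLOD3 passed in 21 of 26 with TRAM2-KO1 and in 16 of 25 with TRAM2-KO2, so not every change is named.

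COLGALT1, the widely expressed galactosyltransferase for hydroxylysine, was at 149.9, 129 and 138 CPM in TRAM2-KO1 and at 166, 168 and 153 CPM in TRAM2-KO2, against 182, 179 and 176 CPM in control. It fell with TRAM2-KO1 (−0.36 ± 0.05, adjusted p = 0.00413) and had a fold change of −0.14 ± 0.05 with TRAM2-KO2 (adjusted p = 0.232). SERPINH1 was at 132, 116 and 123 CPM in TRAM2-KO1 and at 137, 131 and 126 CPM in TRAM2-KO2, against 158, 158 and 152 CPM in control. HSP47 expression generally follows that of collagen, and its gene fell by 20.7% with TRAM2-KO1 (−0.33 ± 0.05, adjusted p = 0.00376) and by 15.8% with TRAM2-KO2 (−0.25 ± 0.05, adjusted p = 0.0171). The second call was lost without control library A (0.089) or B (0.0842) and without TRAM2-KO2 library B (0.0809) or C (0.0793). Among all alternatives run SERPINH1 passed in 20 of 25 with TRAM2-KO2 (adjusted p up to 0.11), so not every loss is named.

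GC content differed widely between these genes, and fold changes were related to it with TRAM2-KO1 (Spearman −0.42 over 15139 genes) and hardly with TRAM2-KO2 (−0.010; both descriptions over genes). PLOD3 (61.0%), SERPINH1 and PLOD1 (both 58.8%), COLGALT1 (57.7%) and P4HB (57.4%) are GC-rich, where P4HA1 (40.2%) and PLOD2 (37.7%) are not; the median over all genes tested was 48.2%. With TRAM2-KO1, the median fold change of all genes within 1 percentage point of PLOD3 in GC content was −0.15, and that of genes like PLOD2 was 0.055. With TRAM2-KO2, these medians were −0.0035 and −0.0048. With library A as the only TRAM2-KO1 library, whose spread is then assumed to be that of the other groups, PLOD3 had a fold change of −0.23, SERPINH1 of −0.24, PLOD1 of −0.41 and PLOD2 of −0.44. After the offset, 8 of the 9 genes fell with each guide, where 2.64% of all genes fell with TRAM2-KO1 and 3.77% with TRAM2-KO2. P4HA1 then stood at −0.26 (adjusted p = 0.000492) with TRAM2-KO1 and −0.28 (0.000254) with TRAM2-KO2. P4HA2 was at −0.22 (0.00102) and −0.27 (0.000202), and P4HB was at −0.19 (0.000155) and −0.22 (5.03e-05). PLOD1 was at −0.37 (3.18e-05) and −0.41 (1.22e-05), and SERPINH1 at −0.23 (9.14e-05) and −0.24 (5.0e-05). PLOD3 stood at −0.23 (adjusted p = 0.000164) and −0.21 (0.000229), COLGALT1 at −0.28 (0.000153) and −0.13 (0.0158), and PLOD2 at −0.44 (2.03e-07) and −0.54 (5.73e-08). The median of the 9 genes was −0.23 with TRAM2-KO1 and −0.24 with TRAM2-KO2 after the offset. Among the alternatives run, COLGALT1 with TRAM2-KO2 passed only in tests with an offset for GC content.

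**Figure D2:**
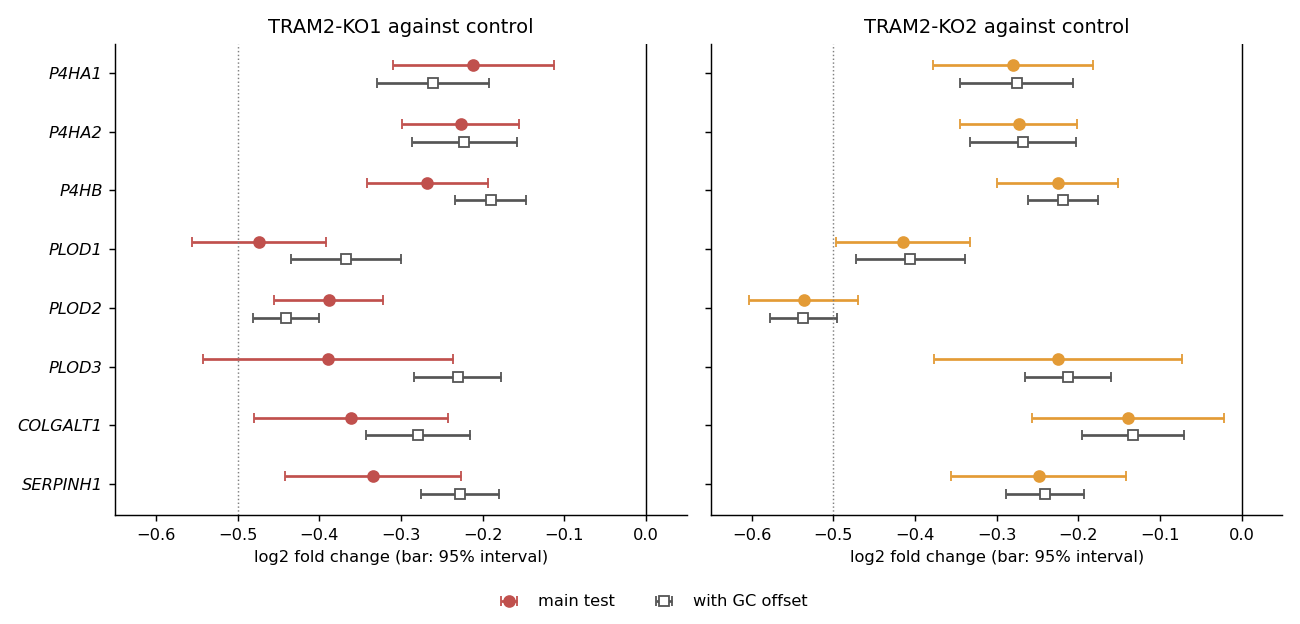
Log2 fold changes (x axis) of the 8 expressed genes with TRAM2-KO1 (left) and TRAM2-KO2 (right) against control, as points with 95% intervals; filled circles are the main test and open squares the test with a GC offset, and the dotted line marks −0.5. All points lie below 0, and the filled ones run from −0.14 for COLGALT1 to −0.54 for PLOD2, both with TRAM2-KO2.

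**Figure D3:**
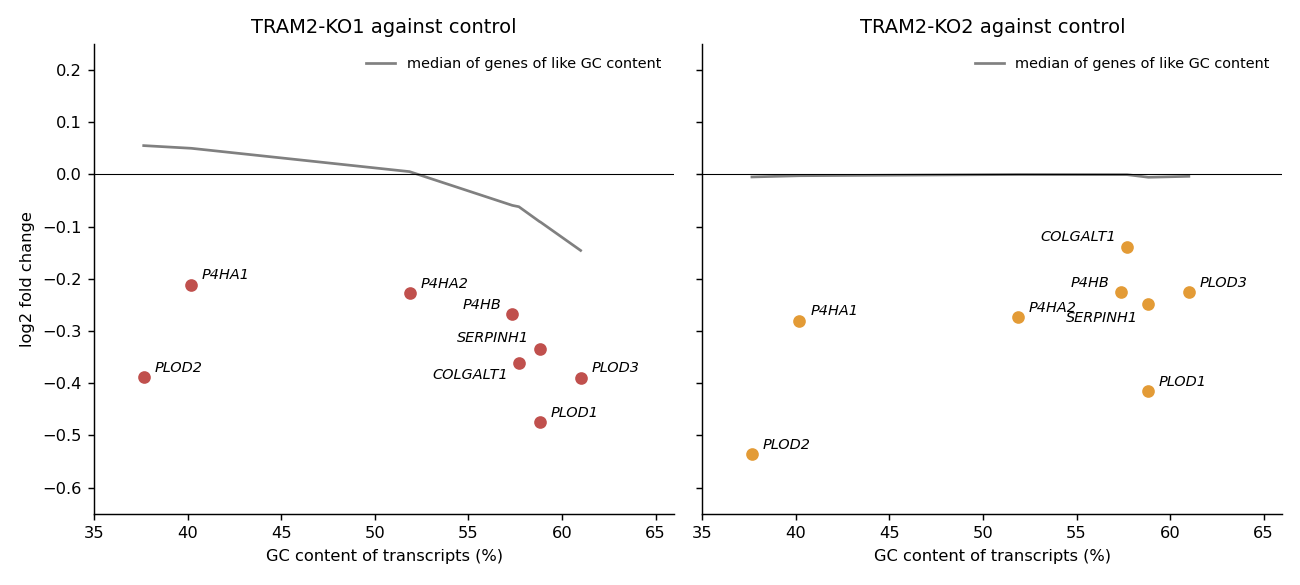
Log2 fold change (y axis) against the GC content of a gene's transcripts (x axis, %) for the 8 expressed genes, with TRAM2-KO1 (left) and TRAM2-KO2 (right); the grey line joins, at the GC content of each member, the median fold change of all genes within 1 percentage point. With TRAM2-KO1 the grey line runs from 0.055 at the GC content of PLOD2 to −0.15 at that of PLOD3, and with TRAM2-KO2 it is flat; every member lies below it.

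The guides differed in 1 of the 9 genes when tested against each other: PLOD2 was lower with TRAM2-KO2 than with TRAM2-KO1 (−0.15 ± 0.03, adjusted p = 0.0346), where 0.865% of all genes fell in that comparison. All 3 TRAM2-KO2 libraries lay below all 3 TRAM2-KO1 libraries, with 912 CPM as the highest and 952 CPM as the lowest; over all genes this held for 11.9%. With the GC offset the difference was −0.10 (adjusted p = 0.0167; 1.5% of all genes fell), with transcript length offsets it was −0.091 (adjusted p = 0.475), and without any 1 of the 3 control libraries, TRAM2-KO1 library B or C or TRAM2-KO2 library A or B it did not pass the main test (adjusted p of 0.0786 to 0.153). COLGALT1 went the other way, at 0.22 ± 0.05 (adjusted p = 0.0636), and at 0.15 with the offset (adjusted p = 0.0181). Without TRAM2-KO1 library A it was 0.28 (0.00695), and PLOD3 was then also higher with TRAM2-KO2 (0.25, adjusted p = 0.0153). That setting left libraries B and C of TRAM2-KO1, and 1223 of 15409 genes rose in it, against 213 of 15139 in the main test. With all libraries PLOD3 was at 0.16 (adjusted p = 0.223) in the main test, and at 0.018 (adjusted p = 0.775) with the GC offset.

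The splice form of PLOD2 decides which lysyl hydroxylase 2 is made: the long form (LH2b) holds a short cassette exon that the other form skips, and LH2b is the form known for telopeptide hydroxylation. The exon is exon 14 of 20, 63 bases or 21 codons long, coding, on the minus strand of chromosome 3 (chr3:145795649-145795711, GRCh37). It is shown because the share of PLOD2 transcripts that hold it is the value tested here; capitals mark the exon and lower case the 30 bases on each side that exons 13 and 15 contribute to the spliced transcript, 5′ to 3′.
PLOD2 exon 14: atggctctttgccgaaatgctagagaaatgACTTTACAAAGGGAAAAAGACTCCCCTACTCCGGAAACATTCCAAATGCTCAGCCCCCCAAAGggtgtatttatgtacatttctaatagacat
Among transcripts that could hold or skip it, PLOD2-201 and PLOD2-209 carried it, PLOD2-202 did not, and PLOD2-204, which also carries it, was listed at 0 in all libraries. The share with the exon was 66.1%, 59.0% and 68.5% with TRAM2-KO1, and 62.1%, 64.7% and 61.4% with TRAM2-KO2, against 65.7%, 63.6% and 66.7% in control. The groups overlapped. The mean was 63.6% ± 3.4 over both guides (SD, n = 6) and 65.3% ± 1.6 in control (SD, n = 3), a difference of −1.71 percentage points (two-sided exact permutation test, p = 0.44; the smallest p this design allows is 0.0119). For each guide alone the difference was −0.81 points with TRAM2-KO1 (exact permutation p = 0.9) and −2.61 points with TRAM2-KO2 (p = 0.2), where 3 against 3 cannot go below 0.1. Single libraries decided the first of these. It was 1.94 points without TRAM2-KO1 library B, −2.77 without library C and −1.60 without library A. It was −1.67 without control library B and −0.14 without control library C. Over both guides the difference ran from −2.68 points without TRAM2-KO1 library C to −0.79 without TRAM2-KO1 library B.

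**Figure D4:**
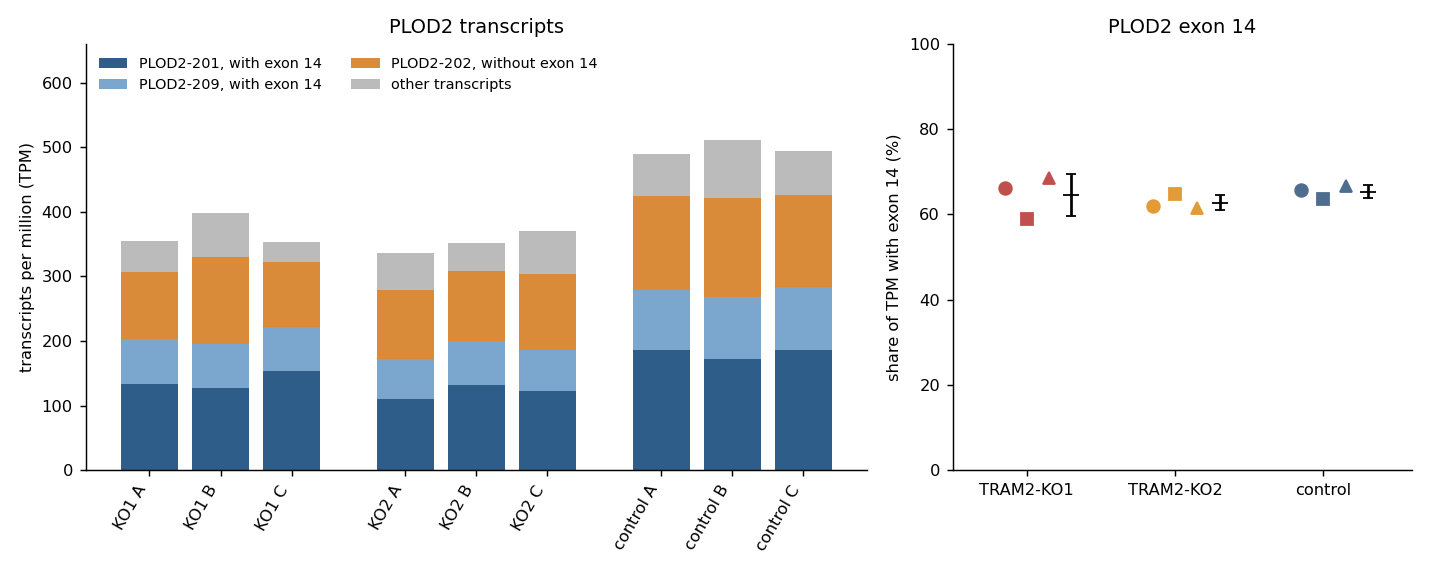
Left, TPM of PLOD2 transcripts (y axis) stacked by form for each library (x axis), with the 2 forms that hold exon 14 in blue, the form without it in orange and all others in grey. Right, the share of TPM with exon 14 (%) in each library, with mean and SD of 3 libraries in black; the stacks are lower in both guide groups while the shares lie between 59.0% and 68.5% in all 3 groups.

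Of the 120 transcripts of these genes in the files, 56 were tested. With each guide 2 fell, PLOD1-201 and PLOD2-209, and none rose (edgeR; 3 with TRAM2-KO1 and 2 with TRAM2-KO2 were higher at an unadjusted p under 0.05), where 0.136% of all transcripts fell and 0.0336% rose with TRAM2-KO1, and 0.0956% fell and 0.0779% rose with TRAM2-KO2. PLOD2-209, a form with exon 14, was at 69.9, 68.6 and 67.8 TPM in TRAM2-KO1 and at 62.4, 67.9 and 63.5 TPM in TRAM2-KO2, against 92.4, 96.8 and 98.7 TPM in control (log2 fold changes −0.46, adjusted p = 0.00522, and −0.58, adjusted p = 0.00201). PLOD2-201 had −0.38 (adjusted p = 0.321) and −0.59 (0.0706), and PLOD2-202, without the exon, had −0.35 (0.554) and −0.42 (0.393). PLOD1-201, the main PLOD1 transcript, had −0.47 (adjusted p = 0.00762) and −0.40 (0.0143). In the test of a transcript against the others of its gene, 1 transcript passed with TRAM2-KO1 and none with TRAM2-KO2 (1 and 1 at an unadjusted p under 0.05, edgeR), where 0.589% and 0.484% of all transcripts tested passed; it was PLOD3-205, a target of nonsense-mediated decay, with 7, 28 and 28 reads in TRAM2-KO1 and 0, 0 and 16 reads in TRAM2-KO2, against 0 in each control library. No transcript passed this test with TRAM2-KO1 without control library A or B or TRAM2-KO1 library B or C. Without TRAM2-KO1 library A 6 transcripts fell with that guide, and without control library A or B or TRAM2-KO2 library B 1 fell with TRAM2-KO2. With the replicate letter as a block, no transcript fell with either guide. These counts per transcript are Salmon's allocation of shared reads, whose own uncertainty is not covered by the tests.

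P4HA1 holds a pair of mutually exclusive exons of equal length, of which a transcript carries 1, on the minus strand of chromosome 10 (chr10:74804739-74804809 and chr10:74803645-74803715, GRCh37). They are shown because they are the coding difference between the P4HA1 forms; both are coding, exon 9 of their transcripts, 71 bases long, and they share 43 bases (60.6%) position by position. Capitals mark the bases that differ.
P4HA1 upstream exon: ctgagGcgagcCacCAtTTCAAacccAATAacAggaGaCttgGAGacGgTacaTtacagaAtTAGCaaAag
P4HA1 downstream exon: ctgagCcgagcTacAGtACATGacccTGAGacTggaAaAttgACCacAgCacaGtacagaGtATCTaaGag
The share with the downstream exon was taken over the TPM of transcripts counted as carrying either exon. For P4HA1 these were P4HA1-201 to P4HA1-205. The share was 82.7% ± 2.3 in TRAM2-KO1 and 81.9% ± 2.2 in TRAM2-KO2, against 81.6% ± 2.2 in control (SD, n = 3 each). P4HA2 has a like pair, 60 and 66 bases long, counted over P4HA2-201, P4HA2-203, P4HA2-204 and P4HA2-207 alone. Its downstream exon had a share of 19.6% ± 1.8, 20.9% ± 4.9 and 19.9% ± 2.3 in the same groups. The ranges of the groups overlapped for both genes.

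Ratios between the enzymes were compared on TPM, over 3 ratios. PLOD2 to the sum of PLOD1 and PLOD3 was 1.97, 2.42 and 2.12 with TRAM2-KO1, and 1.98, 2.07 and 2.20 with TRAM2-KO2, against 2.34, 2.40 and 2.36 in control. All guide libraries but library B of TRAM2-KO1 were below the control range, and the mean was 2.12 ± 0.17 over both guides (SD, n = 6) and 2.37 ± 0.03 in control (SD, n = 3; log2 difference −0.16, exact permutation p = 0.0714, adjusted over the 3 ratios 0.214). On CPM corrected for GC content the difference was −0.19 (adjusted p = 0.0179, exact permutation test). On estimated counts it was −0.086 (adjusted p = 0.976, exact permutation test). The ratio of estimated counts was 3.09, 3.82 and 3.54 with TRAM2-KO1 and 2.73, 2.89 and 3.06 with TRAM2-KO2, against 3.43, 3.29 and 3.36 in control. Libraries B and C of TRAM2-KO1 thus lay above the control range, and the log2 difference of that guide was 0.047. P4HA1 to P4HA2 averaged 0.479 ± 0.022 with the guides and 0.467 ± 0.013 in control (exact permutation, adjusted p = 0.714), and P4HB to the 3 alpha subunits averaged 7.06 ± 0.80 and 7.05 ± 0.35 (adjusted p = 0.952, exact permutation test). All transcripts entered this ratio. In control, protein-coding ones made up 52.7% of the TPM of P4HB, against 99.8% for P4HA1 and 96.6% for P4HA2. A ratio over protein-coding transcripts alone was not run. On estimated counts, which are not scaled by length, the ratio of P4HB was 3.47, 3.59 and 3.51 in control. The ratio of P4HB turned to a log2 difference of 0.049 on the corrected counts (exact permutation, adjusted p = 0.0179), against −0.0042 in TPM.

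**Figure D5:**
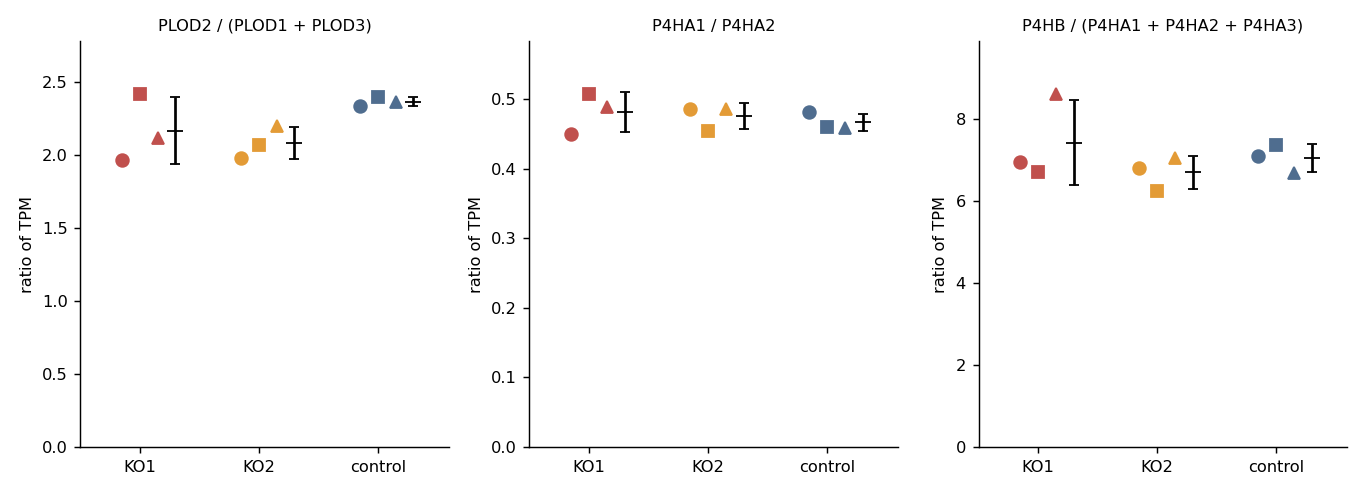
Ratio of TPM (y axis, from 0) in each library of TRAM2-KO1, TRAM2-KO2 and control (x axis) for PLOD2 to PLOD1 plus PLOD3, P4HA1 to P4HA2, and P4HB to the 3 alpha subunits; symbols mark libraries A, B and C, and black bars give the mean and SD of 3 libraries. The first ratio lies between 1.97 and 2.42 with the guides and between 2.34 and 2.40 in control. All transcripts of each gene were counted, protein-coding or not.

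The promoters of 8 of the 10 genes were available in RefSeq (GRCh38.p14; 250 bases before to 50 bases after a start) in 9 windows, with 2 starts for SERPINH1. They are given as a description, since these genes fell together, and a match is not a site of binding. The hypoxia response core (ACGTG or GCGTG, both strands) was in 7 of the 9 windows and in 48.4% of all 35116 windows, the CCAAT box (CCAAT, both strands) in 4 and in 34.6%, the TEAD core (GGAATG, both strands) in that of P4HA2 alone and in 14.03%, and the heat shock element (GAANNTTCNNGAA or TTCNNGAANNTTC, both strands) in the upstream window of SERPINH1 alone and in 0.490%. The ER stress element (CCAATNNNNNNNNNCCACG, which contains the CCAAT box), the unfolded protein response element (TGACGTGG, which contains ACGTG) and AP-1 (TGACTCA or TGAGTCA), each on both strands, had no match in these windows and were in 0.0769%, 0.729% and 4.95% of all windows. The 2 SERPINH1 windows overlap. The only hypoxia response core of the upstream one lies in the overlap and was counted in both windows. Windows of 3 genes are shown, for PLOD2 because hypoxia is a known inducer of it (it held 3 cores), for SERPINH1 because heat shock is, and for P4HA2 because TEAD is the DNA-binding partner of YAP. Capitals mark the named motif on either strand.
PLOD2, chr3:146161135-146161434, minus strand, hypoxia response core: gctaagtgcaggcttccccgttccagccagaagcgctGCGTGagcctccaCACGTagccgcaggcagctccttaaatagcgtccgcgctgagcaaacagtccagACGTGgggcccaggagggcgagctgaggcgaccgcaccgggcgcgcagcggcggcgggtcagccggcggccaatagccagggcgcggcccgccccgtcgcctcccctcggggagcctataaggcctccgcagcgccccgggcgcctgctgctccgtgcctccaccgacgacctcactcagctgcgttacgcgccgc
SERPINH1, chr11:75562003-75562302, plus strand, heat shock element: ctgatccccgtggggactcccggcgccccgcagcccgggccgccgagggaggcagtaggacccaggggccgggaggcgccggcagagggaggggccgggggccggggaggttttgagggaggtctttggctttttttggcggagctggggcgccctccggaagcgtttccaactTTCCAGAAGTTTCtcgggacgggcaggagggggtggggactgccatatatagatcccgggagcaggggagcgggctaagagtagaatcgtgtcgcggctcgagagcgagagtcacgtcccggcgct
P4HA2, chr5:132227042-132227341, minus strand, TEAD core: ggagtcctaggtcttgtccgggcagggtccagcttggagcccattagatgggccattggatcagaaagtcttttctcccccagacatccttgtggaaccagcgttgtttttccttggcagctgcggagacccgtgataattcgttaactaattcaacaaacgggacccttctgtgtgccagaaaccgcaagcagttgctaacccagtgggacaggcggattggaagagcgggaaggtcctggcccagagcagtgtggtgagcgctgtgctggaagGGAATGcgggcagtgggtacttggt

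Around these enzymes, other genes of collagen making were counted from lists, to be read against the 2.15% and 2.49% of all genes that fell with TRAM2-KO1 and TRAM2-KO2. Of 20 collagen chains tested, 11 fell and none rose with TRAM2-KO1, and 8 fell and 1 (COL17A1, at 0.22) rose with TRAM2-KO2 (median log2 fold changes −0.36 and −0.29). Among them COL4A1 (−0.72, adjusted p = 1.14e-06, and −0.59, 5.19e-06) and COL4A2 (−0.78, 0.000257, and −0.57, 0.0017), both of collagen IV in basement membranes, had larger fold changes than any of the enzymes. COL4A4, a further collagen IV chain, had −0.48 and −0.33, and COL8A1, a network-forming chain, −0.34 and −0.44. Of 12 prolyl 3-hydroxylases and folding partners, 4 fell and 1 (FKBP14, at 0.35) rose with TRAM2-KO1 and 3 fell with TRAM2-KO2. P3H2 (−0.31, adjusted p = 0.00736) fell with TRAM2-KO1. P3H1, which hydroxylates single prolines, had −0.43 (adjusted p = 0.000199) and −0.48 (7.97e-05), P3H3, which acts with lysyl hydroxylase 1 in mice, −0.33 and −0.41 (with the GC offset −0.11, adjusted p = 0.443, and −0.39, 0.00272), and the prolyl isomerase FKBP9 −0.41 and −0.35. Of 4 lysyl oxidases, which use the hydroxylysines to cross-link collagen, 2 fell with each guide: LOX (−0.26, adjusted p = 0.000507, and −0.40, 2.49e-05) and LOXL2 (−0.41, 0.00147, and −0.46, 0.000513).

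Genes of ER folding and of further lists were counted next. They are to be read against all genes, of which 2.15% fell and 0.753% rose with TRAM2-KO1, and 2.49% fell and 1.73% rose with TRAM2-KO2. Of 16 protein disulfide isomerases and oxidases, 9 fell with TRAM2-KO1 and 7 with TRAM2-KO2, none rose, and of 14 ER chaperones 5 and 6 fell and none rose; PDIA4, in both lists, had −0.73 (adjusted p = 2.97e-07) and −0.55 (3.66e-06). TXNDC5 (−0.24 and −0.29) and PDIA5 (−0.25 and −0.33) are disulfide isomerases, and HYOU1 (−0.46 and −0.38), HSP90B1 (−0.28 and −0.34) and HSPA5 (−0.19 and −0.27) ER chaperones, all past the test with each guide. Of 12 genes of procollagen export, none passed in either direction in the main edgeR test or in DESeq2 (at an unadjusted p under 0.05 in edgeR, 1 was higher with TRAM2-KO1, and 1 was lower and 1 higher with TRAM2-KO2). In edgeR with the GC offset SEC24D, a COPII coat subunit, fell (−0.088, adjusted p = 0.0333) and MIA2 rose (0.20, adjusted p = 0.0296) with TRAM2-KO2. Of 24 hypoxia-inducible factor targets outside these enzymes, 3 fell and 1 (PDK1, at 0.23) rose with TRAM2-KO1 and 4 fell with TRAM2-KO2, ANGPTL4 (−0.26) among them (medians 0.026 and −0.051). Those that fell with each guide include DDIT4 (−0.51 and −0.40), an inhibitor of mTORC1, ERO1A (−0.25 and −0.22), an ER oxidase also in the isomerase list, and ADM (−0.20 and −0.27), which encodes adrenomedullin. Of 18 other 2-oxoglutarate dioxygenases and cofactor transporters, which share the cofactors of these hydroxylases, ALKBH5 (−0.26) fell with TRAM2-KO1, and ASPH (−0.14) fell and SLC23A2 (0.15) rose with TRAM2-KO2. Of 14 heat shock factor targets, HSPA1A (−0.46) fell with TRAM2-KO1 and HSPA8 (−0.14) with TRAM2-KO2. HSPA1B had −0.40 (adjusted p = 0.0509) and −0.29 (0.147), and fell in the test of both guides together (−0.34, 0.0415). With the GC offset HSPA1B fell with each guide, at −0.30 (0.0103) and −0.28 (0.00975). These are calls of single genes and not of a list. COL17A1, P3H2, FKBP14, PDK1, ANGPTL4, SEC24D, MIA2 and the genes of these last lists were named after their values were seen. None of 6 other triple-helical proteins or P4HB partners passed in edgeR (2 with TRAM2-KO1 and none with TRAM2-KO2 were lower at an unadjusted p under 0.05) or in DESeq2, which gave 1 of them an adjusted p.

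For P4HA1, P4HA2, P4HB, PLOD1, PLOD2 and SERPINH1, the genes whose CPM ran most like theirs over the 9 libraries (Pearson r of log2 CPM, 9112 candidates, a description that carries the difference between the groups) were named for each. For PLOD2 they were COL8A1 (r = 0.993), POSTN (0.990) and ALCAM (0.990), for PLOD1 ECE1 (0.993), COL4A1 (0.989) and HYOU1 (0.989), and for SERPINH1 BMP1 (0.992), FBLN1 (0.990) and CERCAM (0.989). BMP1, the procollagen C-proteinase, was also first for P4HB (0.991), ahead of GUSB (0.989) and CHST3 (0.987). P4HA2 ran with CKAP4 (0.983), TGFBI (0.982) and TXNDC5 (0.980), and P4HA1 with MLEC (0.985), ERLIN1 (0.984) and HS6ST2 (0.983). These CPM were not corrected for GC content, which was 60.6% for BMP1 and 62.3% for CERCAM. With the correction, GUSB (r = 0.988) stood above BMP1 (0.978) for P4HB. HYOU1 (0.977) then stood above ECE1 (0.976) for PLOD1, and ERLIN1 (0.989) above MLEC (0.974) for P4HA1. For PLOD2, SERPINH1 and P4HA2 the gene named first stayed ahead of the others named.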

How the data were processed

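The members and gene lists were chosen with earlier results of these data known. Adapter trimming (cutadapt) and transcript quantification (Salmon) were done by the authors, and neither tool's version nor the transcript release or build was given in the sources used here. The authors deposited estimated counts per transcript, not normalised. The deposited TPM values are scaled within a library. The labels name a TruSeq RNA kit and the study's methods a stranded one. Transcripts were assigned to genes by GENCODE 44 on GRCh37 (97.5% matched). Counts were summed per gene, rounded, filtered (filterByExpr, minimum 10 reads), scaled by TMM and tested with edgeR 4.0.16 (quasi-likelihood, R 4.3.3) on all 9 libraries with 3 groups as terms; tests were two-sided and Benjamini-Hochberg adjusted over all 15139 genes. "Rose" and "fell" mean an adjusted p under 0.05. Transcripts were tested the same way, and against the other transcripts of their gene with diffSpliceDGE. The GC offset is a loess trend (span 0.3) per library. Exon shares and ratios used exact permutation tests. Of each list up to 4 genes with the smallest p for both guides together were taken. Those of them past the test with each guide were named. Other genes of the lists were named after their values were seen. For each member that fell with both guides the 3 most similar genes were named. The scripts were tested on simulated data. Alternatives were other scalings, filters, offsets, DESeq2 1.42.0, a replicate block, and leaving out each library; the GC offset without each library, the usage alternatives and coding-only TPM were chosen after seeing the data.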

Additional observations from a re-analysis of the deposited data

Results flagged for a closer look

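PLOD2 was lower with TRAM2-KO2 than with TRAM2-KO1 by a log2 fold change of −0.147 in the test of the guides against each other, on CPM of 862 to 912 with TRAM2-KO2 and 952 to 1008 with TRAM2-KO1. It was put here because the test of the guides against each other passed for this gene. The call was lost without 7 of the 9 libraries, each left out in turn, and under transcript length offsets (−0.0914), and the difference was −0.0851 with the GC offset and without TRAM2-KO1 library C. The groups of 3 are too small for a test of single outlying libraries.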

How the results depend on the processing

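PLOD1, PLOD2 and P4HA2 passed the test with each guide under all 26 alternatives for TRAM2-KO1 and all 25 for TRAM2-KO2. Under transcript length offsets 4 members fell with TRAM2-KO1 (8 in the main test) and 4 with TRAM2-KO2 (6), while over all genes 96 and 88 fell under these offsets (326 and 377 in the main test). With TRAM2-KO1 library A alone, its spread taken from the other groups, 6 members and 196 of all genes fell. Leaving out libraries in turn, also with the GC offset, gave 6 to 8 members with TRAM2-KO1, 5 to 8 with TRAM2-KO2 and 6 to 8 with both guides together; without the GC offset 208 to 1350, 195 to 447 and 224 to 686 of all genes fell. With TRAM2-KO2 against TRAM2-KO1 the count was 1; without a filter on low counts, with the GC offset, with DESeq2, and with the replicate block and the GC offset it was 2, with length offsets 0, and without single libraries 0 to 3, the 3 being without TRAM2-KO1 library A. Over all genes 131 fell and 213 rose in the main test of the guides against each other. Without the filter 195 and 488 did, with the GC offset 227 and 387, and with DESeq2 202 and 387. With the block and the GC offset these counts were 166 and 317, and with length offsets 13 and 31. Without TRAM2-KO1 library A they were 605 and 1223. Same-lettered libraries deviated together with r of −0.088 to 0.107, so the letters were not taken as pairs; with the replicate block 7 members fell with TRAM2-KO1, 6 with TRAM2-KO2 and 1 between the guides (316, 339 and 89 of all genes), while 0 transcripts passed (4 in the main test over both guides; 8 without TRAM2-KO1 library A). Without single libraries the transcript count ran from 3 to 8. For transcript usage the count of 1 became 0 with a minimum of 50 reads, 0 with the replicate block, and 0 to 2 without single libraries. On GC-corrected counts 2 enzyme ratios passed (0 in TPM), PLOD2 to PLOD1 plus PLOD3 at a log2 difference of −0.185 (−0.0856 on estimated counts, 0.0468 there with TRAM2-KO1 alone) and P4HB to the alpha subunits at 0.0494, and P4HA1 to P4HA2 stood at −0.0229. P4HB to the alpha subunits was at −0.0042 in TPM, 0.0011 on estimated counts, and −0.0627 (without TRAM2-KO1 library C) to 0.0294 (without TRAM2-KO2 library B). The cause of these shifts was not tested. The low counts of P4HA3 and COLGALT2 limit any statement on them.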
